A study of Homo sapiens with 4 samples.

Results

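The naive pluripotency genes described here are 9 genes that mark the earlier, preimplantation-like state of human pluripotent cells, and all 9 were found by symbol among the 19775 genes of the deposited table. The table lists the gene now called ALPG under its older symbol, ALPPL2. The cells were wild-type H1, a long-established line of human embryonic stem cells, cultured in the defined medium E8, which supplies insulin, FGF2 and TGFβ among other factors. The treated group, with 2 libraries, was H1 given XMD892 at 1 µM in E8 for 12 h. XMD892 is an inhibitor of the mitogen-activated kinase ERK5 and is also known to bind BET bromodomain proteins. The other group in the labels is H1 in E8 alone for 12 h, also with 2 samples. The untreated columns of the table carry another culture time than those labels, so they were not used, and the comparison of XMD892 with E8 was not made. A further column is named for XMD892 at 12 h with replicate number 3, and others for XMD892 at 24 h and 48 h; they match no sample in the labels used here and were not analysed here. The values below are levels of the 9 genes in treated cells, and no effect of the compound can be read from them.

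Human pluripotent cells are held in culture in a naive or a primed state. Naive cells resemble the epiblast before implantation, use transcription factors of the KLF and CP2 families, and carry little DNA methylation. Primed cells, the usual state of H1 in E8, resemble the epiblast after implantation and depend on FGF and TGFβ or activin signals. POU5F1, SOX2 and NANOG are shared by both states, so the genes described here are among those that tell the states apart.

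Replicate 2 held 20217648 recovered reads and replicate 1 held 18528689. The labels do not say whether they came from separate cultures, so their spread may be technical. RPKM here is reads per kilobase of merged exons, and per 1000000 recovered reads of the library. The core pluripotency genes had a median of 116 RPKM, and each of the 9 reached 1 RPKM in replicate 2 and in replicate 1, against 59.5% of all genes. Of the 9, 3 were higher in replicate 2 and 6 in replicate 1, against 9872 and 9871 of the 19775 listed genes. POU5F1 had 83719 reads in replicate 2 against 39373 in replicate 1, and SALL4 had 1669 in replicate 2 against 2977 in replicate 1. In bulk RNA, fewer cells that express a gene and less RNA per cell cannot be told apart. COL1A1, of the fibroblast list, had 196 reads in replicate 2 against 1429 in replicate 1, and TAGLN had 423 in replicate 2 against 4515 in replicate 1. COL1A2 of that list had 867 in replicate 2 against 1242 in replicate 1, and PDGFRB 16 against 31. THY1, the most abundant member of the list, which pluripotent cells also carry, went the other way, with 7685 reads in replicate 2 against 3698 in replicate 1. So did ACTA2, with 8 reads in replicate 2 and 4 in replicate 1. LUM, DCN, COL3A1 and TWIST1 of that list were not among the listed genes. The summed level of its 6 listed members was 74.6 RPKM in replicate 2 and 110 RPKM in replicate 1. Whether cells of that kind bear on the values below was not tested.

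All 9 naive genes had reads in both libraries, as did nearly all listed genes. Of 19775 listed genes, 19561 had reads in replicate 2 and 19530 in replicate 1. All 9 naive genes lay below the median level of all genes. Together they took 458 reads in replicate 2 and 466 in replicate 1. Of every 1000000 recovered reads, that is 22.7 in replicate 2 (95% Wilson interval 20.7 to 24.8) and 25.2 in replicate 1 (23.0 to 27.5). The intervals overlap, and like all intervals here they cover counting error only. TFCP2L1 alone supplied 52.6% of these reads in replicate 2 and 57.7% in replicate 1. The median level of the 9 genes was 0.365 RPKM, against 2.31 RPKM over the 19285 genes with a length. At least 1 RPKM in both libraries was reached by 1 of the 9 genes, TFCP2L1, against 59.5% of all genes. The plot of reads by library shows TFCP2L1 apart from the other 8 genes and the wide counting error of the lowest ones.

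**Figure D1:**
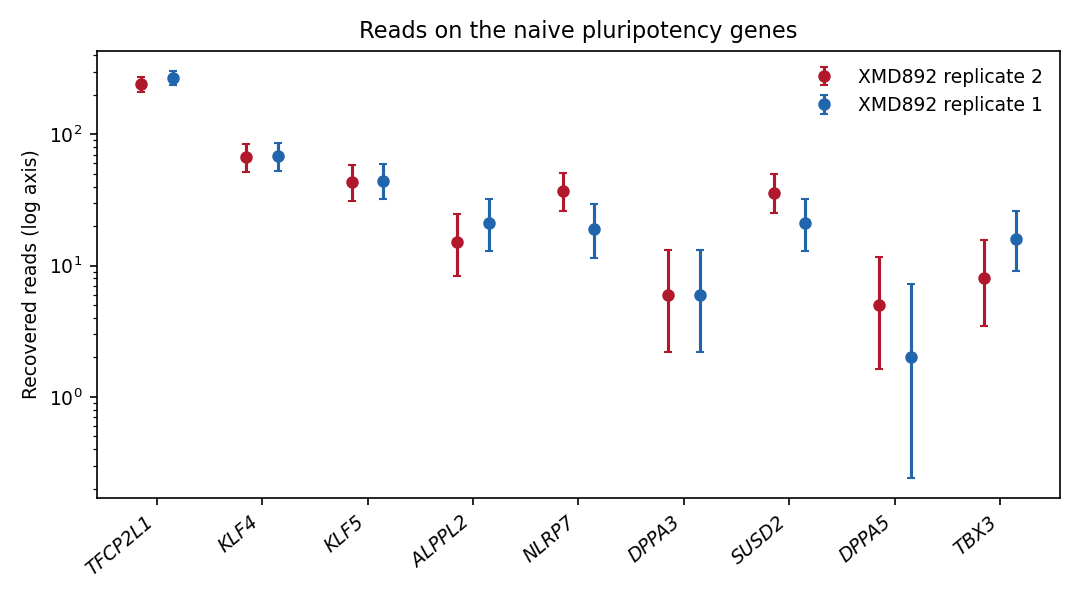
Recovered reads (log axis) on each of the 9 naive pluripotency genes in XMD892 replicate 2 (left of each pair) and replicate 1 (right), ordered by mean RPKM. Bars are exact Poisson 95% intervals; TFCP2L1 stands at 241 reads in replicate 2 and 269 in replicate 1, and DPPA5 at 5 in replicate 2 and 2 in replicate 1.

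The 3 most abundant of the 9 genes, TFCP2L1, KLF4 and KLF5, encode transcription factors. TFCP2L1, a CP2-family factor that acts downstream of LIF and STAT3 in mouse embryonic stem cells, had 241 reads in replicate 2 and 269 in replicate 1, or 1.27 RPKM in replicate 2 and 1.55 RPKM in replicate 1. Its mean of 1.41 ± 0.196 RPKM (SD, n = 2) placed it at percentile 42.1 of all genes. KLF4, a zinc finger factor used to reprogram somatic cells, had 67 reads in replicate 2 and 68 in replicate 1, or 0.906 RPKM in replicate 2 and 1.00 RPKM in replicate 1. Its mean was 0.954 ± 0.0688 RPKM, just under the level of 1 RPKM; with the longest transcript as its length the mean was 1.24 RPKM, and both libraries passed that level. KLF5, a related factor with a role in the inner cell mass and trophectoderm of the mouse, had 43 reads in replicate 2, 44 in replicate 1 and a mean of 0.578 ± 0.0450 RPKM. In RPKM, both libraries of TFCP2L1 lay above both of KLF4, those of KLF4 above those of KLF5, and those of KLF5 above those of ALPPL2, the next gene.

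TBX3, also a transcription factor, a T-box repressor that favours self-renewal in mouse embryonic stem cells, was the lowest of the 9 genes per length. It had 8 reads in replicate 2 and 16 in replicate 1, a mean of 0.106 ± 0.0556 RPKM, at percentile 8.84 of all genes. Both of its libraries lay below both libraries of DPPA5, the next gene up in level, though DPPA5 rests on 5 reads in replicate 2 and 2 in replicate 1.

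The surface proteins were low in both libraries. ALPPL2, a membrane-anchored alkaline phosphatase that is a surface marker of naive cells, had 15 reads in replicate 2 and 21 in replicate 1. Its mean was 0.376 ± 0.111 RPKM. SUSD2, a membrane protein used to sort naive human cells with an antibody, had 36 reads in replicate 2 and 21 in replicate 1, and a mean of 0.276 ± 0.0867 RPKM. SUSD2 had more reads than ALPPL2 in replicate 2 and as many in replicate 1, but a lower mean RPKM, since its merged exons span 5279 bases against 2493 for ALPPL2.

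Of the oocyte and early embryo genes, DPPA3 and DPPA5 rested on the fewest reads of all 9. NLRP7, a maternal-effect gene whose loss causes recurrent hydatidiform mole, had 37 reads in replicate 2 and 19 in replicate 1, and a mean of 0.365 ± 0.145 RPKM. DPPA3, known as STELLA, which guards the maternal genome against demethylation in the mouse zygote, had 6 reads in each library and a mean of 0.288 ± 0.0177 RPKM. The exact Poisson 95% interval on 6 reads runs from 2.20 to 13.1 reads, so the small SD of DPPA3 understates its error. DPPA5, a small KH-domain RNA-binding protein, had 5 reads in replicate 2 (1.62 to 11.7) and 2 in replicate 1 (0.242 to 7.23). Its mean was 0.262 ± 0.145 RPKM over merged exons of 679 bases. From ALPPL2 down to DPPA5, each neighbouring pair in the order of levels overlapped in its libraries, so the order of ALPPL2, NLRP7, DPPA3, SUSD2 and DPPA5 is not resolved.

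Some reads could be shared with near copies, and the authors' rule for reads that map to more than 1 place is not given in the sources used here. Stretches of 50 bases were therefore compared exactly, on both strands, between the transcripts of each gene and those of every other gene in GENCODE release 29. TFCP2L1, KLF4, KLF5 and TBX3 shared none. DPPA3 shared 45.9% of its stretches, most with the pseudogene DPPA3P2 at 41.3%, and its count is uncertain for that reason. ALPPL2 shared 29.3% with its neighbour ALPP, the placental alkaline phosphatase, which is not among the listed genes. NLRP7 shared 8.98% with NLRP2, which overlaps it on the opposite strand, so without a stated strand setting the reads of that stretch cannot be told apart. DPPA5 shared 2.86% with a pseudogene and SUSD2 2.05% with 2 pseudogenes. Reads from any of these copies could have been counted on the gene, or reads of the gene left out.

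Gene positions were taken from GENCODE release 29 (GRCh38, the same assembly as hg38). TFCP2L1 spans chr2:121216587-121285207 (minus strand) and ALPPL2 spans chr2:232406843-232410714 (plus strand). KLF4 spans chr9:107484852-107490482 (minus strand) and KLF5 chr13:73054976-73077542 (plus strand). DPPA3 spans chr12:7711454-7717559 (plus strand), and TBX3, on the same chromosome, chr12:114670254-114684164 (minus strand). DPPA5 spans chr6:73353062-73354295 (minus strand). NLRP7 spans chr19:54923509-54966312 (minus strand) and SUSD2 chr22:24181259-24189110 (plus strand). The 9 genes are thus spread over 7 chromosomes, and none of them neighbours another.

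The promoters of these genes fell into CpG-rich and CpG-poor types, a feature of interest because CpG-poor promoters are often methylated in primed cells and unmethylated in naive ones. RefSeq promoters (GRCh38.p14) were matched for 7 of the 9 genes, and the 250 bases upstream of each start were read. SUSD2 and TBX3 had no entry. A promoter was called CpG-rich with a GC content of at least 50% and an observed to expected CpG ratio of at least 0.6, which 45.0% of all 35116 promoters met. The sequences of the 2 highest and the 2 lowest genes by RPKM, among those with a single promoter, are given 5′ to 3′, with CG dinucleotides in capitals, to show this contrast.
TFCP2L1, chr2:121285203-121285452 (minus strand): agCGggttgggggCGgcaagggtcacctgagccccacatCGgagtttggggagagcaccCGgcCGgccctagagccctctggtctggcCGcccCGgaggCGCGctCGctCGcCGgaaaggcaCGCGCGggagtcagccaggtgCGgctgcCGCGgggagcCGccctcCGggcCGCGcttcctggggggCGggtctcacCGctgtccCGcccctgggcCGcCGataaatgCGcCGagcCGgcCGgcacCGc
KLF4, chr9:107489770-107490019 (minus strand): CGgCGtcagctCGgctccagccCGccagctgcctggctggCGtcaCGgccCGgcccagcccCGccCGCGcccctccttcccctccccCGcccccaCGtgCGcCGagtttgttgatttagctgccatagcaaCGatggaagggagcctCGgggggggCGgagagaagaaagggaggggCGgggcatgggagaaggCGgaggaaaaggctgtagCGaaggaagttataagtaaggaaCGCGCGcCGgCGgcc
DPPA3, chr12:7711183-7711432 (plus strand): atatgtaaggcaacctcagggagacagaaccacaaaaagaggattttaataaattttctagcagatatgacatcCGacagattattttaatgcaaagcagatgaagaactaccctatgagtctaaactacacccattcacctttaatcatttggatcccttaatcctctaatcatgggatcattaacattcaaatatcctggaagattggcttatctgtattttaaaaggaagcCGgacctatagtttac
DPPA5, chr6:73354277-73354526 (minus strand): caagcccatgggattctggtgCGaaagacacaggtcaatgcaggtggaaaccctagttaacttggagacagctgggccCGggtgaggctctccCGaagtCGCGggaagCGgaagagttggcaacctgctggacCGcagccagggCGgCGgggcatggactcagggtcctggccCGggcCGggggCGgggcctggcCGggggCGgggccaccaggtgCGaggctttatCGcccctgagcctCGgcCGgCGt

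TFCP2L1 held 32 CG dinucleotides in these bases and KLF4 25, against a median of 11 over all promoters. DPPA3 held 2, at percentile 18.8 of all promoters, and DPPA5 held 19. ALPPL2 also held 2, and NLRP7 held 5. KLF5 has an upstream start with 3 and a downstream start with 27. Of the genes with a single promoter, 3 were CpG-rich (TFCP2L1, KLF4 and DPPA5) and 1 of these reached 1 RPKM in both libraries, against 79.0% of all listed genes with a single CpG-rich promoter. The 3 with a CpG-poor promoter (ALPPL2, NLRP7 and DPPA3) held 0 at that level, against 43.4% of genes of that type. DNA methylation was not measured here, and the sequence alone does not show the state of a promoter.

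For 8 of the 9 naive genes, all but SUSD2, a list of relatives or partners was read per length beside the gene. Of 13 genes of the NLRP family and the maternal complex of the oocyte only 5 were in the table. At 1 RPKM in replicate 1 and 2 alike stood 0 of these 5, against 59.5% of all genes. NLRP7 was the second of them by mean level, after ZBED3 at 1.34 ± 0.486 RPKM. NLRP2, the overlapping relative of NLRP7, had 21 reads in replicate 2 and 47 in replicate 1, opposite in direction to the 37 and 19 reads of NLRP7. In the other families the naive gene was far below the most abundant relative. DPPA4, a chromatin-associated factor of naive and primed cells, reached 202 ± 32.7 RPKM, and DPPA2, its partner, 7.71 ± 3.06 RPKM. The level of DPPA4 was 817 times that of DPPA3 in replicate 2 and 594 times in replicate 1, ratios that rest on the 6 reads of DPPA3. ALPL, the tissue-nonspecific alkaline phosphatase long used to stain pluripotent colonies, reached 85.7 ± 34.8 RPKM. That level was 205 times that of ALPPL2 in replicate 2 and 243 times in replicate 1.

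Of the 15 listed KLF genes 10 (66.7%) reached 1 RPKM in both libraries, near the 59.5% of all genes. KLF4 and KLF5 stood at ranks 11 and 12. The KLF genes above them were led by KLF16 at 17.7 ± 4.66, KLF13 at 9.28 ± 0.0989 and KLF6 at 5.57 ± 0.650 RPKM, all broadly expressed. KLF2, a gene of the mouse naive network, stood below both at 0.323 ± 0.110 RPKM on 10 reads in replicate 2 and 15 in replicate 1. In the CP2 and grainyhead family TFCP2L1 was the fifth of 6 genes. TFCP2, its closest paralog and a broadly expressed factor, stood at 17.1 ± 1.08 RPKM, 12.8 times TFCP2L1 in replicate 2 and 11.5 times in replicate 1. GRHL1, an epithelial factor, lay beside TFCP2L1 at 1.46 ± 0.121 RPKM, a difference within their spread. Among the 11 listed T-box genes 3 (27.3%) reached 1 RPKM in both libraries, TBX10, TBX1 and MGA, against 59.5% of all genes. TBX10 had 335 reads in replicate 2 and 1543 in replicate 1, so its mean of 32.3 ± 30.5 RPKM is not well fixed. TBX3 lay near the bottom of the family with EOMES, a factor of mesendoderm, at 0.106 ± 0.00346 RPKM, and with TBX22 at 0.0669 ± 0.0371 RPKM.

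**Figure D2:**
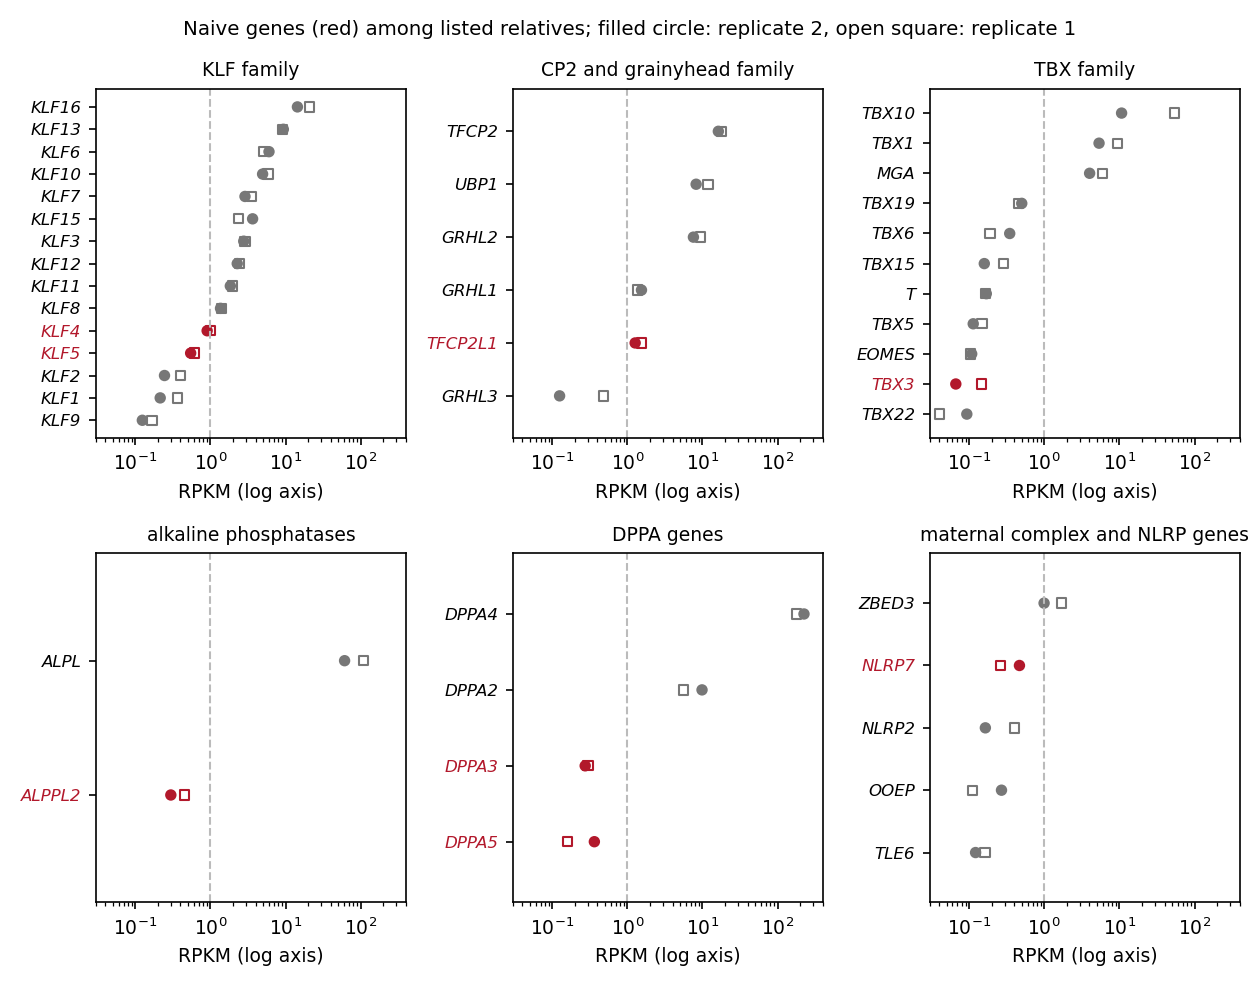
RPKM (log axis) of each listed gene in the 6 families that hold a naive gene, in XMD892 replicate 2 (filled circles) and replicate 1 (open squares). The naive genes are red and the dashed line is at 1 RPKM; TFCP2L1 alone of them lies right of the line in both libraries.

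Most other listed genes of the naive programme were more abundant. A list of 27 further genes was taken from knowledge of naive pluripotent cells. In it KLF2 and ESRRB are genes of the mouse naive network. The table held 16 of the 27 genes, and their median was 11.4 RPKM. Of these 16, 12 (75%) stood at 1 RPKM or more in each library, against 59.5% of all genes. The 4 most abundant were DPPA4, ZFP42 (REX1) at 74.6 ± 5.61, the phosphatase DUSP5 at 28.3 ± 13.1 and PRDM14, a repressor needed for pluripotency, at 26.8 ± 13.0 RPKM. DPPA4, ZFP42 and PRDM14 are also expressed in primed cells. The 4 listed genes below the threshold were FGF4 at 0.512 ± 0.228, KLF2, ESRRB at 0.217 ± 0.0236 and FAM151A, with 2 reads in replicate 2 and none counted in replicate 1. KLF17, DNMT3L, ARGFX, KHDC1L and KHDC3L, which naive human cells express, were not among the listed genes. They belong to 11 genes of that list which are not analysed here.

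Most markers of the primed state were more abundant. The table held all 20, of which 17 (85%) stood at 1 RPKM or more in each library, against 59.5% of all genes. The median level of the 20 was 28.6 RPKM. The list was led by CD24, a surface protein, at 446 ± 19.7 RPKM and by DNMT3B, a de novo DNA methyltransferase, at 336 ± 129 RPKM. SFRP2, a secreted WNT modulator, stood at 311 ± 0.811 RPKM and LINC00678, a long noncoding RNA of primed cells, at 161 ± 28.6 RPKM. The lowest 3 lay under the median of all genes: HMX2 at 2.10 ± 2.45, OTX2, a transcription factor of primed cells, at 1.31 ± 1.13 and CYTL1 at 1.12 ± 0.441 RPKM. The means of OTX2 and CYTL1 were below the 1.41 RPKM of TFCP2L1, and OTX2 had 34 reads in replicate 2 against 128 in replicate 1. In all, 6 of the 20 primed markers differed 2-fold or more between the libraries, against 16.9% of all listed genes. The summed level of the 20 primed genes was 1578 RPKM in replicate 2 and 1718 RPKM in replicate 1. For the 9 naive genes the sums were 4.53 RPKM in replicate 2 and 4.70 RPKM in replicate 1. The primed sum was 348 times the sum of these 9 in replicate 2 and 366 times in replicate 1. The 16 listed genes of the other naive list summed to 429 RPKM in replicate 2 and 393 RPKM in replicate 1, so the ratio depends on the list. The lists differ in size and were not chosen at random, so these sums describe the libraries and carry no test.

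**Figure D3:**
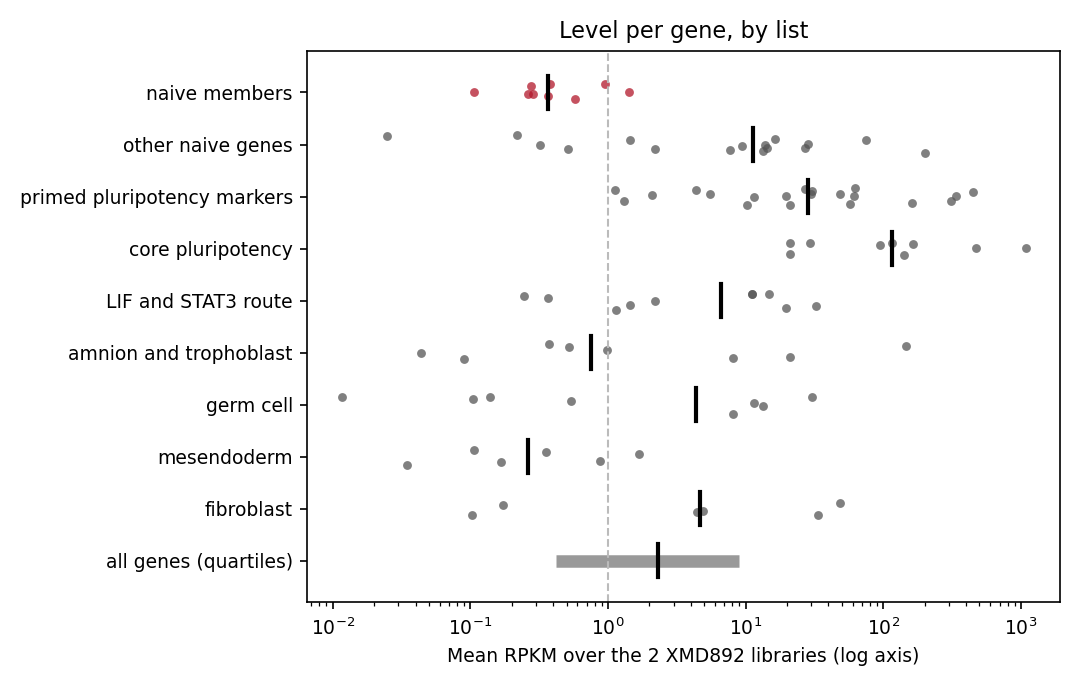
Mean RPKM over the 2 XMD892 libraries (log axis) of each listed gene, by list; vertical bars are list medians, the grey bar spans the quartiles of all genes and the dashed line is at 1 RPKM. The naive genes (red) have a median of 0.365 RPKM, the primed markers 28.6 RPKM and the core pluripotency genes 116 RPKM.

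TFCP2L1 and KLF4 are known as targets of LIF and STAT3 in mouse embryonic stem cells, and the genes of that route were present. The table held all 10, and 8 (80%) stood at 1 RPKM or more in each library, against 59.5% of all genes. The most abundant were GBX2 at 32.4 ± 5.40 and PIM1 at 19.7 ± 1.35 RPKM. STAT3 stood at 14.8 ± 2.35, its kinase JAK1 at 11.2 ± 0.276, and the receptor chains LIFR and IL6ST at 2.19 ± 0.0803 and 1.45 ± 0.290 RPKM. The STAT3 feedback inhibitor SOCS3 had 324 reads in replicate 2 and 832 in replicate 1. The ligand LIF itself stood at 0.368 ± 0.115 RPKM on 23 reads in replicate 2 and 33 in replicate 1, at the level of the naive genes.

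Several of the naive genes are also expressed in trophoblast, amnion or germ cells, so markers of those cells were read in the same libraries. The table held 8 of 16 amnion and trophoblast genes. KRT18, ITGA6 and TFAP2C, which pluripotent cells also express, were the 3 (37.5%) at 1 RPKM or more in each library, against 59.5% of all genes. KRT7 stood at 0.992 ± 0.0522, GATA2 at 0.518 ± 0.287 and GABRP at 0.375 ± 0.0152 RPKM, levels within the range of the naive genes. GATA2 had 65 reads in replicate 2 against 26 in replicate 1. The defining factors GATA3 and TFAP2A were the lowest listed, with 6 to 8 reads in a library, at 0.0903 ± 0.00557 and 0.0435 ± 0.00614 RPKM. CDX2, HAND1, ISL1 and VTCN1 were not among the listed genes. The summed level of the list was 193 RPKM in replicate 2 and 162 RPKM in replicate 1. The table held 8 of 10 germ cell genes, and 4 (50%) stood at 1 RPKM or more in each library, against 59.5% of all genes. The 4 were PDPN at 30.6 ± 9.21, SOX15 at 13.4 ± 3.46, KIT at 11.5 ± 2.02 and TFAP2C at 8.15 ± 0.891 RPKM. In bulk RNA these levels do not tell which cells carried them. The germ cell RNA-binding gene DAZL had 2 reads in replicate 2 against 17 in replicate 1. NANOS3 had 2 reads in each library, and PRDM1 had 3 in replicate 2 against 0 in replicate 1. SOX17 and DDX4 of that list were not among the listed genes, and the summed level was 56.1 RPKM in replicate 2 and 72.8 RPKM in replicate 1. The mesendoderm list had 6 of 10 genes listed, 0 of them at 1 RPKM in both libraries, against 59.5% of all genes. All 6 were higher in replicate 2. MIXL1 had 104 reads in replicate 2 against 31 in replicate 1, and GSC 33 against 11. The mean of MIXL1, 1.68 ± 1.21 RPKM, was above that of TFCP2L1, the highest naive gene. The list summed to 4.59 RPKM in replicate 2 and 1.86 RPKM in replicate 1.

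The difference between the treated libraries describes the spread within 1 group only, and the spread of the E8 group was not read. It was computed on log2(normalized count + 1), subtracting replicate 1, and this scale makes the gaps of low genes too small. A single library stands on either side, so it is a description with no p-value. By this measure 3 of the 9 genes had the higher value in replicate 2, against 9872 of the 19775 listed genes. The other 6 had it in replicate 1, against 9871. The median difference was -0.045, against a median of 0 over all genes. The libraries differed 2-fold or more for 0 of the 9 genes, against 16.9% of all listed genes and 33.8% of the 8476 genes with a mean normalized count under 100. Without the pseudocount 2 of the 9 passed that gap, DPPA5 and TBX3, and with total reads as the scale 1 did. The shares of all genes above do not apply to these other settings, for which no such share is given.

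NLRP7 was 1.91-fold higher in replicate 2, and its exact binomial 95% interval on the log2 scale, 0.10 to 1.82, excluded equal levels. Among the 9 genes this held for NLRP7 alone, against 49.4% of all listed genes and 25.0% of those under 100 normalized counts. SUSD2 was 1.69-fold higher in replicate 2, with an interval from -0.062 to 1.60. TBX3 was 2.04-fold higher in replicate 1 on 8 reads in replicate 2 and 16 in replicate 1, with an interval from -2.46 to 0.28 for replicate 2 against replicate 1. For DPPA5 the interval ran from -1.31 to 4.69, so a difference of either sign is within the counting error.

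The 3 most abundant naive genes had the narrowest counting intervals. TFCP2L1 had normalized counts of 254 in replicate 2 and 289 in replicate 1, a difference of -0.18, with an interval from -0.44 to 0.073. KLF4 had 70.7 normalized counts in replicate 2, 73.0 in replicate 1 and an interval from -0.55 to 0.46, and KLF5 had 45.4 in replicate 2 and 47.2 in replicate 1, with an interval from -0.70 to 0.58. For TFCP2L1 the counting error of such a pair of libraries is thus well under 2-fold, while for DPPA3 the interval from -1.93 to 1.88 spans nearly 4-fold either way.

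**Figure D4:**
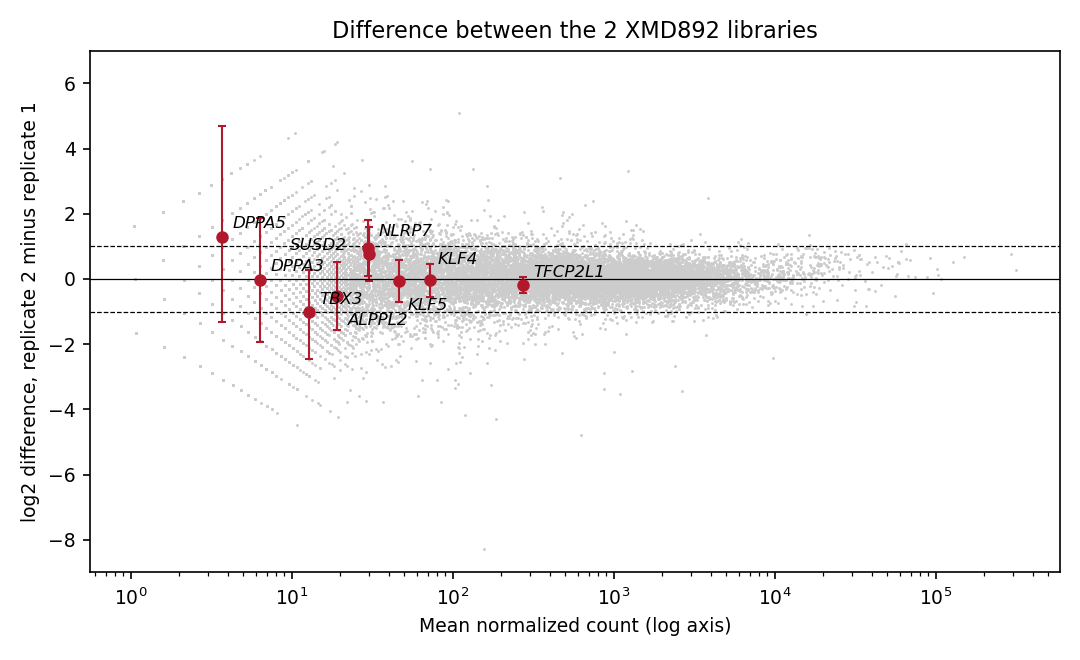
Difference between the XMD892 libraries (log2, replicate 2 minus replicate 1) against the mean normalized count (log axis). Grey points are all genes with a mean of at least 1, with a pseudocount of 1; red points are the 9 naive genes without a pseudocount, with exact binomial 95% intervals, of which that of NLRP7 alone lies off 0, and dashed lines mark 2-fold.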

How the data were processed

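Poly(A)-selected RNA was sequenced in paired ends on an Illumina instrument, per the labels' protocols. The submitters' processing notes list Trimmomatic 0.36, STAR, featureCounts 1.5.3, DESeq2 1.26.0 and hg38, with no roles. The sources used here do not give the annotation, the strand setting or how genes were selected for the table. The authors deposited a normalized signal, gene counts divided by 1 size factor per library. Every value (100% within 0.01 reads) equalled a whole number times the column's step, which gave whole reads and size factors of 0.948 for replicate 2 and 0.932 for replicate 1. A further 7 columns of the table, 1 of them named for XMD892 at 12 h with replicate number 3, matched none of the 4 samples and were not used, so the planned edgeR test of XMD892 against E8 was not run.

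RPKM used merged exon lengths from GENCODE 29. Of 19775 symbols 19283 matched 1 gene ID, and 2 more, ALPPL2 among them, were matched by a RefSeq synonym. Merged lengths understate genes with long rare isoforms. Calculations used Python 3.11.15, pandas 2.3.3 and scipy 1.17.1. The read recovery and intervals were tested on simulated Poisson counts. Those counts hold counting error only, so that test does not show how the intervals behave on real libraries. Intervals are 95%: exact Poisson for reads, Wilson for shares, Clopper-Pearson for the ratio of libraries. The naming rule took all 9 members, relatives of the same family, and up to 4 of the most abundant genes of each of the other lists. Further list members were chosen after their values were seen. They were named for their role, as defining markers, as genes not listed, or to complete or balance a list. The members and the 16 lists were chosen with earlier results of these data known. With 2 usable libraries no gene was named for a like pattern. Alternatives for length, scale, pseudocount, threshold and library are given in the closing section.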

Additional observations from a re-analysis of the deposited data

How the results depend on the processing

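With the longest transcript in place of merged exons, 2 of the 9 naive genes reached 1 RPKM in both libraries (TFCP2L1 and KLF4) in place of 1; this follows from the shorter length of KLF4. At a threshold of 0.5 RPKM 3 did, and at 2 RPKM 0 did. Taking 1 library at a time, from 1 to 2 genes reached 1 RPKM, and the median level of the 9 genes ran from 0.300 to 0.364 RPKM. A 2-fold gap between the libraries was passed by 1 gene with total reads as the scale and by 2 with no pseudocount, a setting chosen after seeing the data, in place of 0. Shares of all genes are given for the main settings only, so the counts at other settings have none beside them. Total reads moved the median difference of all genes to -0.091. Of 18 levels of single genes under another length or scale, 2 moved by more than the spread between libraries, both with the longest transcript, KLF4 to 1.24 and KLF5 to 0.631 RPKM. In 1 library alone, DPPA5 was as low as 0.159 RPKM (without replicate 2) and TBX3 0.0665 RPKM (without replicate 1). The test of XMD892 against E8 and all its alternatives, and the level in E8, were not run. No paired analysis was possible because the columns of only 1 group matched samples. Depth limits DPPA3 and DPPA5 most, at under 10 normalized counts.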
